A study of Mus musculus with 9 samples.

Results

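The data of the 10 genes Ttn, Actn2, Ldb3, Myoz2, Tcap, Csrp3, Ankrd1, Xirp1, Xirp2 and Des are described, which encode titin, proteins of the cardiac Z-disc, stretch-responsive proteins and desmin. They were chosen by name from the 41710 gene names of the deposited heart tables, and all of their 71 annotated transcripts among 127558 were summed by gene. All 10 genes passed the filter on low counts. The tables cover whole hearts of 8-month-old male mice in 3 groups of 3 libraries, 1 library per heart by the labels. All groups share the FVB/N background. Tg-RKIP mice carry a transgene for the RAF kinase inhibitor protein, RKIP, under the alpha-MHC promoter, which drives expression in heart muscle cells, and they have symptoms of heart failure. The second group is labelled Tg-GRK2, for G-protein-coupled receptor kinase 2, and the promoter of its transgene is not given in the sources used here. The third group is non-transgenic FVB controls. The comparisons ask how the cardiac transcriptome differs between each transgenic group and the controls.

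The sarcomere is the contractile unit of heart muscle, and its borders are the Z-discs, at which actin filaments of neighbouring sarcomeres are anchored. Titin, a giant elastic protein, spans from the Z-disc to the M-band in the middle of the sarcomere and sets passive stiffness. Proteins around both ends of titin are thought to sense stretch, and desmin filaments tie Z-discs to each other and to the cell membrane.

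The labels were checked against the transgene products. Pebp1, the gene of RKIP, was higher in Tg-RKIP than in FVB hearts by 4.81 ± 0.02 on the log2 scale (SE, n = 3 libraries per group, edgeR, adjusted p = 4.04e-33). Grk2 was not raised in the libraries labelled Tg-GRK2 (log2 fold change against FVB 0.05 ± 0.04 SE, edgeR, adjusted p = 0.354), so they are named by their label. Libraries held 25458108 to 33447654 reads on transcripts. The 10 genes took 2.11% ± 0.01 of the reads in Tg-RKIP, 1.39% ± 0.01 in labelled Tg-GRK2 and 1.35% ± 0.00096 in FVB (SD, n = 3), while mitochondrial genes took 11.7% ± 0.16, 22.6% ± 0.30 and 23.1% ± 0.16.

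Because the groups differ in composition, the scale of a comparison matters. Levels are given in TPM, a unit that corrects read numbers for the length of the transcript and for the library's total. Fold changes and tests are of read counts scaled by the TMM method of edgeR, which places the median of the 15504 tested genes at a log2 fold change of 0.01 in Tg-RKIP against FVB. Scaling to total reads placed that median at 0.38, and scaling to the reads of cardiomyocyte markers other than Myh6 placed it at 0.60. Those markers were mostly lower in Tg-RKIP on TMM-scaled reads (log2 fold changes -2.07 to 0.26), and that scale follows them. In TPM the median of 13478 genes was 0.43. A gene that keeps pace with the median gene thus looks raised on these 3 scales. An error after a log2 fold change is its SE, an error after a TPM value is the SD of 3 libraries, and adjusted p-values are from the quasi-likelihood test of edgeR with Benjamini-Hochberg adjustment. An exact two-sided permutation test of single genes cannot go below p = 0.1 with 3 libraries against 3. Lower transcript levels in bulk tissue can come from fewer cells of a type or from less RNA per cell, and these cannot be told apart here.

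By the TMM-scaled test (adjusted p under 0.05), 4 of the 10 genes were higher in Tg-RKIP hearts than in controls and the other 6 were lower. By the same rule 36.8% of all tested genes were higher and 37.1% lower, so being called is not particular to these genes. Ankrd1, Des and Tcap were higher and Ttn was lower under each of the 20 alternatives computed. The direction of Actn2, Ldb3, Myoz2, Csrp3 and Xirp1 turned with the scaling, and that of Xirp2 with the transcript form. In the labelled Tg-GRK2 libraries 2 genes were higher than in FVB, 5 were lower and 3 were not called, against 12.2% of all genes in each direction.

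**Figure D1:**
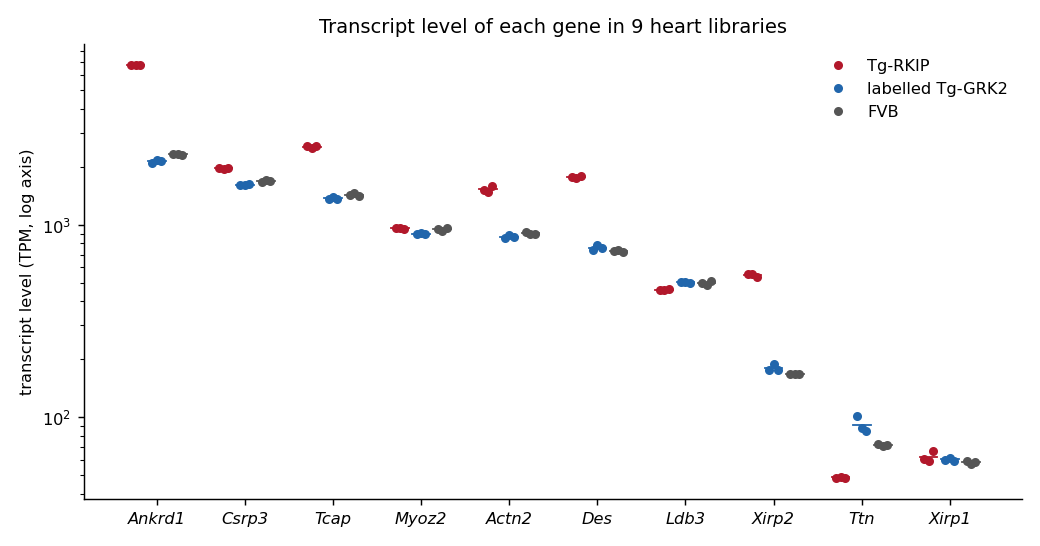
Transcript level of each of the 10 genes in the 9 libraries, in TPM on a log axis, with points for libraries and a short line for the mean of each group, ordered by the mean in FVB. In TPM Ankrd1, Csrp3, Tcap, Actn2, Des and Xirp2 stand higher and Ttn and Ldb3 lower in Tg-RKIP than in both other groups. Labelled Tg-GRK2 libraries lie near FVB except for Ttn, at 84.5 to 102.0 TPM against 71.1 to 72.6 TPM in FVB.

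In FVB hearts Ankrd1 had the highest level of the 10 genes per length (2328 ± 12.3 TPM), followed by Csrp3 (1692 ± 19.2), Tcap (1427 ± 26.2), Myoz2 (946 ± 15.2), Actn2 (903 ± 9.56), Des (730.5 ± 7.64), Ldb3 (497 ± 11.1), Xirp2 (167 ± 0.389), Ttn (71.8 ± 0.758) and Xirp1 (58.3 ± 1.26). In this order no neighbouring genes overlapped in their FVB libraries. In Tg-RKIP the order of the means changed, with Tcap above Csrp3, Des and Actn2 above Myoz2, Xirp2 above Ldb3 and Xirp1 above Ttn.

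Titin itself fell. Ttn lies at chr2:76534324-76812891 on the minus strand (GRCm39, as deposited). Its level was 48.5, 49.2 and 48.2 TPM in the Tg-RKIP libraries, 102.0, 87.4 and 84.5 TPM in labelled Tg-GRK2, and 72.6, 71.1 and 71.8 TPM in FVB. The 3 groups did not overlap, and 1 labelled Tg-GRK2 library stood above its group. Against FVB, Ttn was lower in Tg-RKIP (log2 fold change -1.10 ± 0.03, edgeR, adjusted p = 2.63e-19) and lower than in labelled Tg-GRK2 (-1.43 ± 0.03, edgeR, adjusted p = 2.83e-21). It was higher in labelled Tg-GRK2 than in FVB (0.33 ± 0.03, edgeR, adjusted p = 8.56e-09), and by 0.27 to 0.36 with any 1 library left out.

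The size of the fall in Ttn depends on the scale. On total reads it was -0.73, on the reads of cardiomyocyte markers -0.51 and in TPM by limma -0.56. Long transcripts as a class were lower in Tg-RKIP, as the median log2 fold change was 0.15 for the 1545 genes whose most abundant transcript is under 1000 bases, -0.43 for 670 genes of 8000 to 16000 bases and -0.68 for the 31 genes over 16000 bases. Ttn, at 81999 bases, lay at the lower quartile of the last class (-1.10). With a smooth length trend removed, an alternative added after seeing the data, its log2 fold change was -0.42. In labelled Tg-GRK2 against FVB the length trend ran the other way, from -0.09 in the shortest class to 0.11 in the longest, and Ttn differed by 0.23 with that trend removed. The part of transcript length in these differences was not tested.

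**Figure D2:**
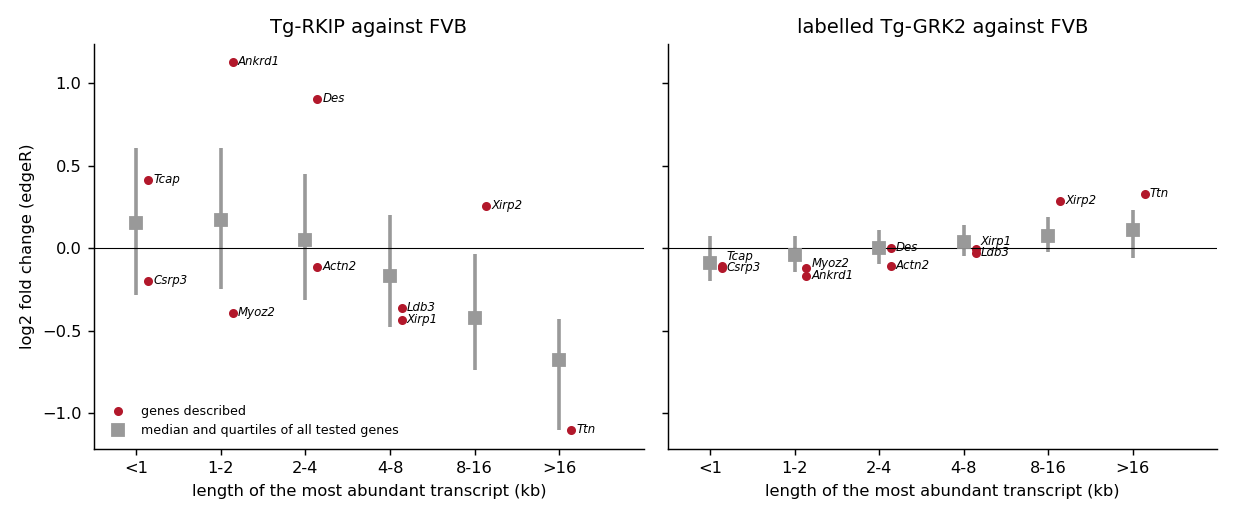
Log2 fold change against FVB (edgeR) by length class of the most abundant transcript, in kilobases, for Tg-RKIP on the left and labelled Tg-GRK2 on the right, with grey squares and bars for the median and quartiles of all tested genes and red points for the 10 genes. In Tg-RKIP the class median declined from 0.15 to -0.68 with length, Ttn lay at the lower quartile of its class, and Ankrd1, Des and Xirp2 lay above the upper quartile of theirs.

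The heart makes titin of several sizes by splicing. Most Ttn reads were assigned to the transcript with 191 exons and 81999 bases, ENSMUST00000011934, which took 89.7% ± 0.22 of Ttn reads in Tg-RKIP, 93.8% ± 0.36 in labelled Tg-GRK2 and 92.7% ± 0.04 in FVB (SD, n = 3). A short form with 45 exons and 16891 bases, ENSMUST00000099980, has a last exon of 6520 bases that the 191-exon form lacks. It took 7.25% ± 0.07, 4.84% ± 0.16 and 5.69% ± 0.15 of Ttn reads, and its TMM-scaled reads fell by 0.72 on the log2 scale in Tg-RKIP against FVB (edgeR, adjusted p = 5.04e-06). The 3 forms of over 100000 bases took 2.41% ± 0.15 of Ttn reads in Tg-RKIP, 0.63% ± 0.17 in labelled Tg-GRK2 and 0.97% ± 0.12 in FVB. Nearly all of those reads were on ENSMUST00000111882, which was not called in Tg-RKIP against FVB (log2 fold change 0.23 ± 0.15, edgeR, adjusted p = 0.318), but was 0.56 and called when scaled to total reads, while the 191-exon form fell by 1.12 ± 0.04 (edgeR, adjusted p = 3.51e-07). These 4 forms lie below the share at which transcripts were to be named and were chosen after their values were seen. How the authors divided reads of shared exons between forms is not given in the sources used here.

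Actn2 encodes alpha-actinin 2, which crosslinks actin filaments at the Z-disc, and lies at chr13:12284312-12355641 on the minus strand. It stood at 1515, 1478 and 1595 TPM in Tg-RKIP, 854, 883 and 865 TPM in labelled Tg-GRK2 and 914, 895 and 899.5 TPM in FVB. In TPM the Tg-RKIP libraries lay above all others. On TMM-scaled reads, however, Actn2 was slightly lower in Tg-RKIP than in FVB (log2 fold change -0.12 ± 0.02, edgeR, adjusted p = 5.32e-07), and on total reads it was 0.26 higher.

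The transcripts of Actn2 did not move alike. The main 22-exon transcript ENSMUST00000168193 stood at 778 ± 19.1 TPM in Tg-RKIP, 749 ± 18.1 TPM in labelled Tg-GRK2 and 765 ± 15.9 TPM in FVB, and on TMM-scaled reads it fell by 0.36 ± 0.02 in Tg-RKIP against FVB (edgeR, adjusted p = 5.68e-06). The 21-exon transcript ENSMUST00000064204, with 22.2% of Actn2 reads in Tg-RKIP and 15.5% in FVB, went the other way, with 229, 238 and 252 TPM in Tg-RKIP, 115, 111 and 118 TPM in labelled Tg-GRK2 and 147, 116 and 146 TPM in FVB (log2 fold change against FVB 0.43 ± 0.09, edgeR, adjusted p = 0.00722). The Tg-RKIP libraries lay above all others for this form. A non-coding transcript of 501 bases and 4 exons, ENSMUST00000222034, had 3173, 3828 and 3615 reads in Tg-RKIP, 0, 0 and 6 reads in labelled Tg-GRK2 and 0 reads in each FVB library. Against a floor of 3 reads in each FVB library it was at least 939.8-fold higher in Tg-RKIP on TMM-scaled reads. All of its exons but the first lie within exons of the longer Actn2 forms. The bound therefore rests on how reads of shared exons were divided, which is not given in the sources used here. This 501-base transcript supplied 25.4% ± 1.74 of Actn2 TPM in Tg-RKIP but 5.98% ± 0.60 of Actn2 reads, since a short transcript gains TPM per read. Without it Actn2 summed to 1140.3 ± 17.9 TPM in Tg-RKIP, 867 ± 15.0 TPM in labelled Tg-GRK2 and 903 ± 9.56 TPM in FVB. A coding transcript of 576 bases, ENSMUST00000221162, had 1067, 1367 and 1414 reads in Tg-RKIP, 34, 30 and 46 in labelled Tg-GRK2 and 0, 0 and 56 in FVB, and was called higher in Tg-RKIP than in FVB (edgeR, adjusted p = 0.00697). Its level was 123 ± 21.9 TPM in Tg-RKIP against 1.81 ± 3.13 TPM in FVB, and all of its FVB reads came from 1 library. Both short transcripts were singled out after their values were seen.

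The first exon of the 501-base transcript lies in an intron of the longer Actn2 forms, at chr13:12288882-12288982 in the deposited tables (GRCm39). The same exon, of the same 101 bases, lies at chr13:12273996-12274096 on the minus strand of GRCm38 in GENCODE M21. Its sequence is shown from there, 5′ to 3′, because reads assigned to this transcript separate the groups. Reads on this exon alone were not counted.
Actn2 501-base transcript, exon 1: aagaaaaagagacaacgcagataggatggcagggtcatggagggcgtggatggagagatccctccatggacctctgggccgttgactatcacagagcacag

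Ldb3 encodes a PDZ and LIM domain protein, also called ZASP or Cypher, that binds alpha-actinin, and lies at chr14:34248560-34310639 on the minus strand. Its level was 457, 456 and 464 TPM in Tg-RKIP, 502, 505 and 499 TPM in labelled Tg-GRK2 and 498, 486 and 508 TPM in FVB. The Tg-RKIP libraries lay below all others, at 0.923 times the FVB mean, and the other groups overlapped. Ldb3 was lower in Tg-RKIP than in FVB by the TMM-scaled test (log2 fold change -0.36 ± 0.02, edgeR, adjusted p = 2.92e-14), but on total reads the difference was 0.01.

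The forms of Ldb3 did not fall together. The 8-exon transcript ENSMUST00000022330, of 1586 bases, stood at 231, 235 and 243 TPM in Tg-RKIP and at 321, 311 and 331 TPM in FVB. The 14-exon transcript ENSMUST00000022327, of 5119 bases, stood at 183, 181 and 175 TPM in Tg-RKIP and at 148, 142 and 149.7 TPM in FVB. The short form thus lay lower and the long form higher per length in Tg-RKIP, with no overlap between these groups. The TPM ratio of short to long form was 1.32 ± 0.06 in Tg-RKIP, 2.16 ± 0.04 in labelled Tg-GRK2 and 2.19 ± 0.02 in FVB (SD, n = 3). On TMM-scaled reads the short form fell by 0.82 ± 0.03 (edgeR, adjusted p = 4.43e-07) and the long form fell by 0.09 ± 0.02 (edgeR, adjusted p = 0.0155).

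Myoz2 encodes myozenin 2, or calsarcin 1, which binds alpha-actinin and calcineurin at the Z-disc (chr3:122799855-122828664, minus strand). It stood at 959, 963 and 949.9 TPM in Tg-RKIP, 893, 909.8 and 893 TPM in labelled Tg-GRK2 and 952, 929 and 958 TPM in FVB. Tg-RKIP and FVB libraries overlapped in TPM (exact permutation p = 0.4), whereas the TMM-scaled log2 fold change was -0.40 ± 0.02 (edgeR, adjusted p = 3.32e-15). Csrp3 encodes muscle LIM protein, a Z-disc protein linked to stretch sensing (chr7:48480146-48497781, minus strand). Its level was 1980.3, 1955 and 1978 TPM in Tg-RKIP, 1604, 1609 and 1619 TPM in labelled Tg-GRK2 and 1676, 1713 and 1686 TPM in FVB. Here too the scales part, with Tg-RKIP above FVB in TPM without overlap but lower on TMM-scaled reads (-0.20 ± 0.02, edgeR, adjusted p = 5.53e-10).

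Tcap encodes telethonin, which caps the Z-disc end of titin, and lies at chr11:98274637-98275779 on the plus strand. Its level was 2563, 2492 and 2559 TPM in Tg-RKIP, 1358, 1386 and 1368 TPM in labelled Tg-GRK2 and 1422, 1455 and 1403 TPM in FVB. The Tg-RKIP libraries lay far above both other groups, with 1.78 times the FVB mean. Tcap was higher in Tg-RKIP than in FVB on TMM-scaled reads (log2 fold change 0.41 ± 0.02, edgeR, adjusted p = 3.59e-15) and higher than in labelled Tg-GRK2 (0.52 ± 0.02, edgeR, adjusted p = 5.11e-17). It did not pass a test against a fold change of 1.5 in either comparison. Tcap, Csrp3 and Myoz2 were read almost wholly on 1 transcript each, ENSMUST00000008021, ENSMUST00000032658 and ENSMUST00000029761, with 100%, 99.5% and 95.3% of their reads in Tg-RKIP.

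The stretch-responsive gene Ankrd1 rose most of the 10 on TMM-scaled reads. It encodes cardiac ankyrin repeat protein, which binds the elastic region of titin and is also found in the nucleus, and lies at chr19:36089361-36097499 on the minus strand. The level was 6783, 6767 and 6785 TPM in Tg-RKIP, 2104, 2181 and 2154 TPM in labelled Tg-GRK2 and 2328, 2339.9 and 2315 TPM in FVB. The 3 groups did not overlap, and Tg-RKIP stood at 2.91 times FVB in TPM. On TMM-scaled reads the log2 fold change was 1.12 ± 0.01 against FVB (edgeR, adjusted p = 4.89e-25) and 1.29 ± 0.01 against labelled Tg-GRK2 (edgeR, adjusted p = 5.21e-26). In labelled Tg-GRK2 it was lower than in FVB (-0.17 ± 0.01, edgeR, adjusted p = 2.84e-09). Both main transcripts moved alike in Tg-RKIP, the 9-exon coding ENSMUST00000025718 by 1.12 ± 0.02 and ENSMUST00000235941, annotated as a target of nonsense-mediated decay, by 1.19 ± 0.03.

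Xirp1 and Xirp2 encode Xin actin-binding repeat proteins of the intercalated disc, where heart muscle cells join end to end. Xirp1 (chr9:119842821-119852664, minus strand) stood at 60.7, 58.9 and 66.9 TPM in Tg-RKIP, 60.2, 61.6 and 59.1 TPM in labelled Tg-GRK2 and 59.1, 56.8 and 58.8 TPM in FVB. In TPM Tg-RKIP overlapped with both other groups. On TMM-scaled reads Xirp1 was lower in Tg-RKIP than in FVB (-0.44 ± 0.02, edgeR, adjusted p = 2.77e-14), its 3-exon form ENSMUST00000111635, with most of its reads, fell by 0.29 ± 0.02 (edgeR, adjusted p = 2.53e-05), and its 1-exon form ENSMUST00000238557 fell from 819, 963 and 859 reads in FVB to 326, 451 and 370 reads in Tg-RKIP (-1.54 ± 0.07, edgeR, adjusted p = 1.74e-06). Xirp1 overlaps Cx3cr1 on the same strand, and Cx3cr1 had 308 to 476 reads in Tg-RKIP, 194 to 240 in labelled Tg-GRK2 and 163 to 172 in FVB. How reads of the overlap were counted was not tested.

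Xirp2 (chr2:67004178-67356959, plus strand) showed the largest rise of the 10 genes in TPM, with 556, 556 and 538 TPM in Tg-RKIP, 177, 189 and 177 TPM in labelled Tg-GRK2 and 167 TPM in each FVB library. Tg-RKIP libraries lay at 3.29 times the FVB mean, yet TMM-scaled reads differed by only 0.25 ± 0.02 on the log2 scale (edgeR, adjusted p = 1.04e-11). With a length trend removed the latter was 0.62, and for the most abundant transcript alone it was -0.81. The length trend takes a single length per gene, for Xirp2 the 11979 bases of its long form. In Tg-RKIP 54.6% of Xirp2 reads were on a form of 2704 bases, against 13.2% in FVB.

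In Tg-RKIP hearts the reads assigned to forms of Xirp2 shifted from a long to a short form. The long form, ENSMUST00000112347, has 9 exons and 11979 bases, of which 9265 are in exon 7 at chr2:67338253-67347517 (GRCm39). The short form, ENSMUST00000239060, has the same first 6 exons, lacks that exon and totals 2704 bases in 8 exons. All of its exons lie within exons of the long form. The shift therefore rests on how reads of shared exons were divided, which is not given in the sources used here. Reads across the exon joints were not counted.

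Reads on the short form numbered 17177, 22336 and 17053 in Tg-RKIP, 2269, 2384 and 2482 in labelled Tg-GRK2 and 2780, 3250 and 2865 in FVB. Reads on the long form numbered 13168, 17143 and 12237 in Tg-RKIP, 26025, 24494 and 28719 in labelled Tg-GRK2 and 18242, 20813 and 18140 in FVB. Tg-RKIP libraries lay above all others for the short form and below all others for the long form. The short form was higher in Tg-RKIP than in FVB by 2.33 ± 0.04 (edgeR over 34991 transcripts, adjusted p = 6.84e-09), and the long form fell by 0.77 ± 0.03 (edgeR, adjusted p = 2.52e-07). In labelled Tg-GRK2 against FVB the directions were the reverse, with -0.40 ± 0.04 for the short form (edgeR, adjusted p = 0.00165) and 0.38 ± 0.03 for the long form (edgeR, adjusted p = 0.000378). The short to long TPM ratio was 5.91 ± 0.23 in Tg-RKIP, 0.400 ± 0.03 in labelled Tg-GRK2 and 0.689 ± 0.01 in FVB (SD, n = 3).

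The joints that tell these forms apart are given here from the long form in GENCODE M21, whose exon lengths equal the deposited ones, with the exon before the joint in lower case and the exon after it in capitals. The exons end at 67507180 and start at 67507909 and 67519220 on chr2 of GRCm38, plus strand, and the first joint was composed from the exons next to the one left out.
Xirp2 exon 6 to exon 8, long exon left out: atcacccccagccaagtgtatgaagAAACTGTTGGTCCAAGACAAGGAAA
Xirp2 exon 6 to exon 7, long exon kept: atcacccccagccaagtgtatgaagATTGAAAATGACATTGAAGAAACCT
Xirp2 exon 7 to exon 8, long exon kept: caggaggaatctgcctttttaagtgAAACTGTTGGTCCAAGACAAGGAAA

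**Figure D3:**
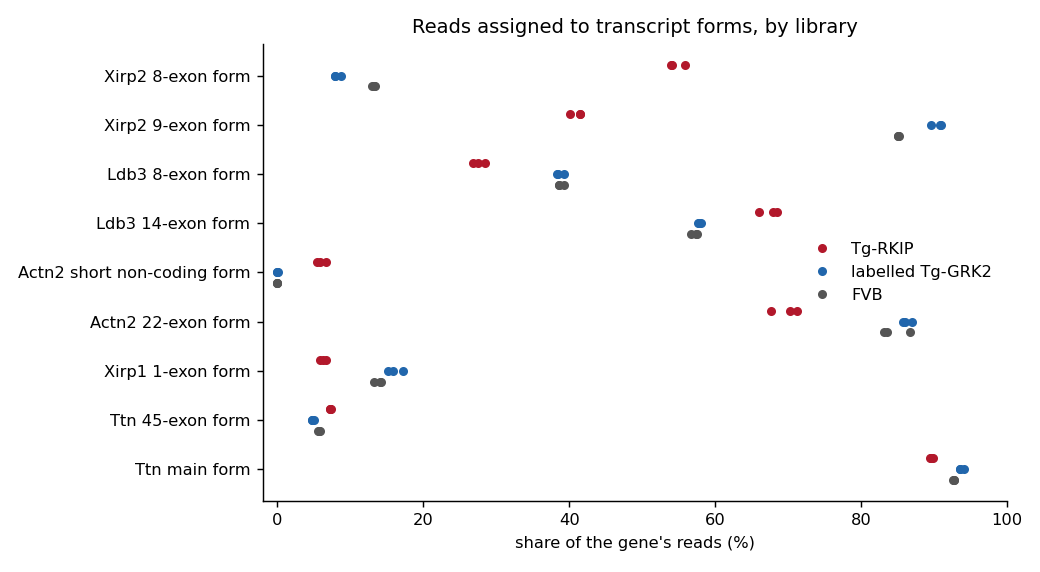
Share of each gene's reads assigned to transcript forms of Xirp2, Ldb3, Actn2, Xirp1 and Ttn, in percent, with 1 point per library and colours for the 3 groups. The Xirp2 8-exon form took 54.6% of Xirp2 reads in Tg-RKIP and 13.2% in FVB, and the Actn2 short non-coding form, of 501 bases, took 5.98% in Tg-RKIP and no reads in FVB.

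Over all 10 genes, 48 transcripts passed the filter. In Tg-RKIP against FVB 13 of them rose and 19 fell (edgeR, adjusted p under 0.05), against 15.0% and 19.0% of all tested transcripts. In labelled Tg-GRK2 against FVB 2 were higher and 5 lower, against 1.67% and 1.75% of all, and in Tg-RKIP against labelled Tg-GRK2 15 were higher and 18 lower, against 17.0% and 20.0%.

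Des encodes desmin, the main intermediate filament protein of heart muscle, and lies at chr1:75336973-75345223 on the plus strand. It stood at 1776, 1758 and 1786 TPM in Tg-RKIP, 738, 785 and 758 TPM in labelled Tg-GRK2 and 731, 738 and 723 TPM in FVB. All Tg-RKIP libraries lay above all others, at 2.43 times the FVB mean. On TMM-scaled reads Des was higher in Tg-RKIP than in FVB by 0.90 ± 0.02 (edgeR, adjusted p = 2.09e-22) and did not pass the test in labelled Tg-GRK2 (0.0018 ± 0.02, edgeR, adjusted p = 0.953). The transcript ENSMUST00000027409 held 99.9% ± 0.04 of Des reads in Tg-RKIP and 98.8% ± 0.18 in FVB (SD, n = 3).

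**Figure D4:**
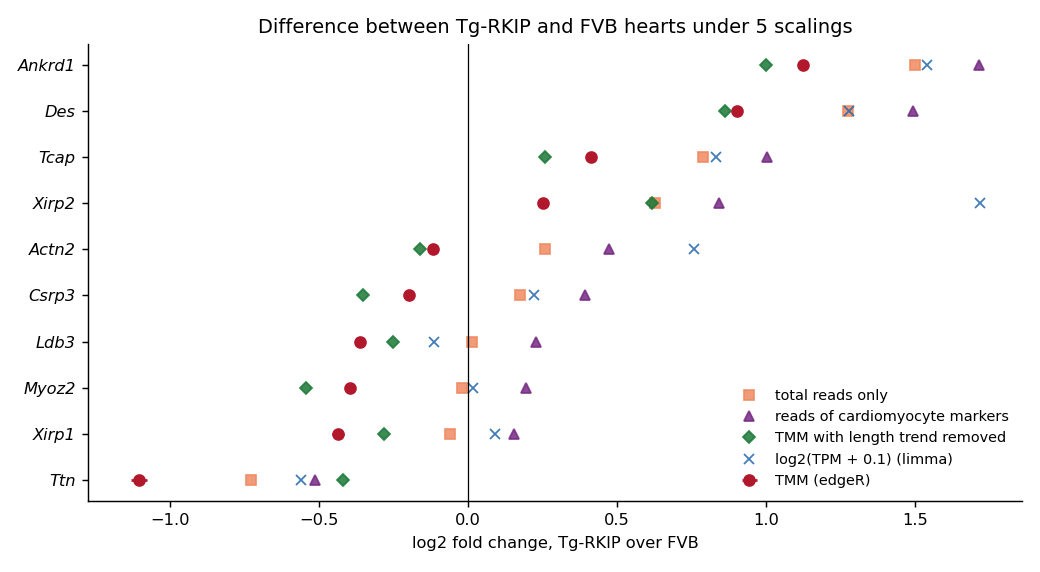
Log2 fold change of the 10 genes in Tg-RKIP over FVB under 5 scalings, with bars for the SE of the TMM-scaled value where they exceed the marker. Ankrd1, Des and Tcap lie above 0 and Ttn below 0 on all 5, while Actn2, Csrp3, Ldb3, Myoz2 and Xirp1 lie on both sides.

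Between the transgenic groups, 3 of the 10 genes were higher in Tg-RKIP (Ankrd1, Des and Tcap), 5 were lower (Ttn, Ldb3, Myoz2, Csrp3 and Xirp1) and 2 were not called (Actn2 and Xirp2), against 37.9% of all tested genes higher and 36.6% lower. The log2 fold changes in labelled Tg-GRK2 against FVB ran from -0.17 for Ankrd1 to 0.33 for Ttn, against -1.10 for Ttn to 1.12 for Ankrd1 in Tg-RKIP, while Xirp2 differed from FVB by 0.29 in labelled Tg-GRK2 and 0.25 in Tg-RKIP, and Actn2 by -0.11 and -0.12. In labelled Tg-GRK2 against FVB, Actn2, Myoz2, Tcap, Csrp3 and Ankrd1 were lower, Ttn and Xirp2 higher, and Des, Ldb3 and Xirp1 were not called. Both comparisons use the same FVB libraries. In TPM the libraries of 8 of the 10 genes did not overlap between Tg-RKIP and FVB, against 78.8% of all tested genes, those of 8 between labelled Tg-GRK2 and FVB, against 33.8%, and those of 9 between the transgenic groups, against 78.5%. These shares, too, include genes with far fewer reads.

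Cell type markers moved with Tg-RKIP as well. Of 12 cardiomyocyte markers, 10 fell relative to FVB and 1 rose on TMM-scaled reads, with a median log2 fold change of -0.65, and their summed level was 69432 to 70349 TPM in Tg-RKIP and 75077 to 75734 TPM in FVB. All 8 fibroblast markers, 6 macrophage markers and 6 adipocyte markers were higher, with summed levels of 2793 to 2816 TPM against 984 to 1021 TPM for fibroblasts, 628 to 643 against 250.3 to 257 for macrophages and 166 to 174 against 16.3 to 17.8 for adipocytes. Of 7 markers of smooth muscle, whose cells also make desmin, 5 were higher and 2 lower. Endothelial markers (3 higher, 3 lower of 6), skeletal muscle markers (3 higher, 1 lower of 6 tested) and atrial markers (3 higher, 3 lower of 6) were mixed. Airway epithelium markers, of which 3 of 6 were at 0 in FVB, summed to 62.3 to 64.3 TPM in Tg-RKIP, 149 to 157 TPM in labelled Tg-GRK2 and 0.113 to 0.639 TPM in FVB. When labelled Tg-GRK2 was set against FVB, 5 of 8 fibroblast, 4 of 6 macrophage and 4 of 6 adipocyte markers were higher and none of these lower, with summed levels of 1123 to 1136, 279.9 to 296 and 28.0 to 31.3 TPM. Of the 12 cardiomyocyte markers 4 were higher and 8 lower there, with a median log2 fold change of -0.09. The part of these cells in the levels of the 10 genes was not tested.

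Genes around these proteins were examined in 5 lists, in Tg-RKIP against FVB, beside a median log2 fold change of 0.01 over all tested genes, of which 36.8% were called higher and 37.1% lower. Of 20 tested partners at the Z-disc, 11 were higher and 7 lower, with a median log2 fold change of 0.14. Synpo2l, a synaptopodin-like actin-binding protein, rose by 1.36 ± 0.02 and reached 213 ± 3.57 TPM against 57.8 ± 1.43 TPM in FVB. The PDZ and LIM domain genes Pdlim7 and Pdlim3 rose by 1.27 ± 0.04 and 0.91 ± 0.04. Cmya5, or myospryn, fell by 1.73 ± 0.02, Fhod3, a formin that builds sarcomeric actin, by 1.24 ± 0.02 and Nebl, nebulette, by 0.79 ± 0.02.

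Of 20 titin and M-band partners, 6 were higher and 13 lower, with a median of -0.21. The LIM domain genes Fhl1 and Fhl2 went opposite ways, with Fhl1 at 342 ± 1.24 TPM in Tg-RKIP against 128 ± 1.02 TPM in FVB (log2 fold change 1.00 ± 0.02) and Fhl2 at 277 ± 3.83 TPM against 925 ± 16.9 TPM (-2.14 ± 0.02). Sqstm1, or p62, and Ankrd23, an ankyrin repeat gene of the same family as Ankrd1, rose by 0.86 ± 0.02 and 0.41 ± 0.02. Lrrc39, or myomasp, and the ubiquitin ligase Trim55 fell by 1.02 ± 0.02 and 0.90 ± 0.03.

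Of 20 genes of intermediate filaments and costameres, 10 were higher and 10 lower, with a median of 0.0014. Beside Des, the filament genes Krt18, Krt8 and Vim rose by 2.88 ± 0.11, 1.72 ± 0.18 and 0.99 ± 0.02, from 1.82 ± 0.23, 0.803 ± 0.05 and 313 ± 3.62 TPM in FVB to 18.0 ± 1.38, 3.56 ± 0.49 and 864 ± 5.08 TPM. Vim is a filament gene of non-muscle cells. On TMM-scaled reads the membrane-link genes Dmd, dystrophin, Sgcd, delta-sarcoglycan, and Tln2, talin 2, fell by 1.32 ± 0.02, 1.17 ± 0.06 and 0.83 ± 0.03. Their levels were 30.7 ± 0.61, 17.2 ± 1.31 and 16.7 ± 0.70 TPM in FVB and 24.7 ± 0.19, 10.2 ± 0.32 and 16.2 ± 0.40 TPM in Tg-RKIP. In TPM the Tln2 libraries of Tg-RKIP and FVB overlapped.

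Of 18 load-induced genes, 16 were higher and 2 lower, with a median of 1.48. Gdf15, a stress cytokine, Tnc, tenascin C, and Timp1, an inhibitor of metalloproteinases, rose by 3.68 ± 0.09, 3.29 ± 0.12 and 2.78 ± 0.10. The immediate early genes Atf3 and Fos fell by 1.08 ± 0.06 and 0.39 ± 0.10. The immediate early genes Egr1 and Myc rose by 0.35 ± 0.06 and 1.14 ± 0.13. Fos differed by -0.013 on total reads and was 0.20 higher on the scale of cardiomyocyte marker reads. Atf3 was lower than in FVB in labelled Tg-GRK2 too (-1.24 ± 0.07, edgeR, adjusted p = 7.47e-12). Of 19 regulators of titin splicing and sarcomere genes, 5 were higher and 14 lower, with a median of -0.21. Rbm20, the splicing factor that shortens titin, fell by 0.88 ± 0.02 from 63.5 ± 1.47 TPM to 46.1 ± 1.34 TPM, Mef2a by 1.00 ± 0.02 and Myocd, myocardin, by 1.5 ± 0.04. Vgll2, a cofactor of TEAD factors, rose by 2.95 ± 0.09, Nkx2-5 by 0.46 ± 0.04 and Mrtfa by 0.43 ± 0.07. All genes named from these lists passed the edgeR test with adjusted p from 1.03e-26 to 0.00156. Between labelled Tg-GRK2 and FVB, where 12.2% of all tested genes were called in each direction and their median log2 fold change was -0.0023, 4 of 20 Z-disc partners were higher and 9 lower (median -0.04) and 8 of 20 titin and M-band partners were higher and 5 lower (0.04). There 11 of 20 filament and costamere genes were higher and 1 lower (0.10), 6 of 18 load-induced genes were higher and 2 lower (0.08), and 10 of 19 regulators were higher and 2 lower (0.08).

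**Figure D5:**
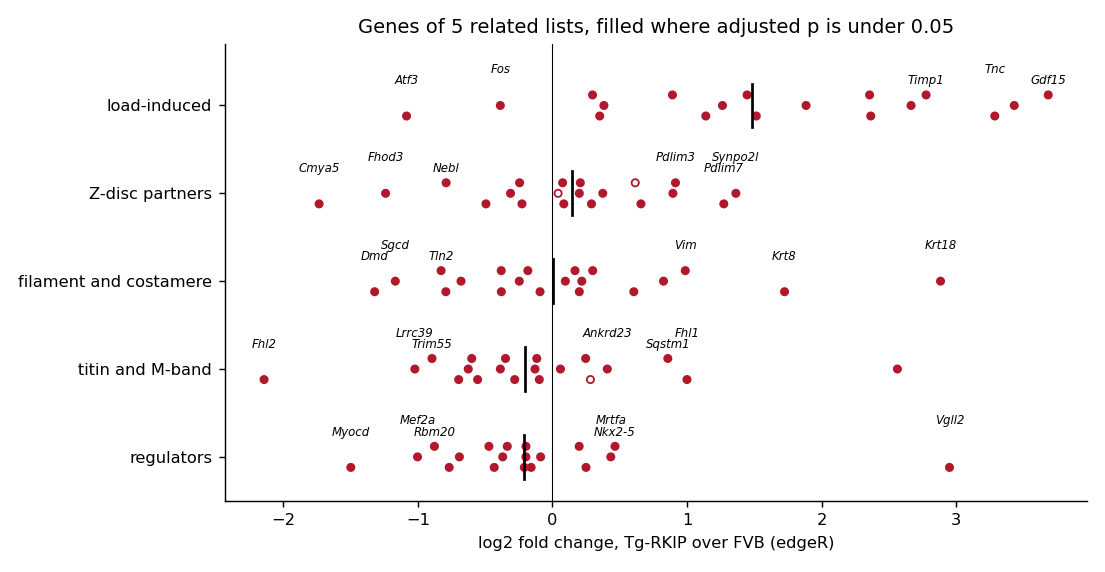
Log2 fold change in Tg-RKIP over FVB (edgeR) of the tested genes of 5 related lists, with 1 point per gene, filled where adjusted p is under 0.05, a black line at the list median and names for the genes given in the text other than Egr1 and Myc. Load-induced genes have a median of 1.48 and the other lists have medians from -0.21 to 0.14.

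Over the 9 libraries the genes whose log2(TPM + 0.1) followed that of Ttn most closely were Cdc14b, Phactr2 and Qk (Pearson r = 0.991, 0.991 and 0.989), and 268 of 6915 genes of at least 10 TPM had r over 0.95. For Ankrd1 they were Eef1a1, Ccn5 and Gyg (r = 1.00 for each) among 2803 such genes, and for Des C1qa, Cfd and Vim (r = 1.00 for each) among 2942. The 9 points form 3 groups, so these values describe the order of the groups and carry no test.

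Promoter sequences in RefSeq (GRCm38.p6) were found for 8 of the 10 genes, without Tcap and Xirp1. The 250 bases before the start were searched on both strands for the MCAT motif of TEAD factors (CATTCC), the CArG box of serum response factor and the MEF2 site, which are known sites of heart muscle regulators. MCAT was in 12.6% of 32851 promoters, the CArG box in 1.47% and the MEF2 site in 2.92%. MCAT matched only in Ankrd1 among the 8, at -210 to -205 and -123 to -118 from the start, the CArG box only in Ldb3, and the MEF2 site in Xirp2 (-74 to -65), Ttn (-166 to -157) and Myoz2 (-33 to -24). These letters were not in the windows of Des, Actn2 and Csrp3. The promoters of the gene that rose most and of those with a MEF2 site are shown, 5′ to 3′ in the sense of the gene, with matches in capitals and no overlap between motifs, from chr19:36119845-36120094 (minus), chr2:67445752-67446001 (plus), chr2:76982548-76982797 (minus) and chr3:123034988-123035237 (minus).
Ankrd1: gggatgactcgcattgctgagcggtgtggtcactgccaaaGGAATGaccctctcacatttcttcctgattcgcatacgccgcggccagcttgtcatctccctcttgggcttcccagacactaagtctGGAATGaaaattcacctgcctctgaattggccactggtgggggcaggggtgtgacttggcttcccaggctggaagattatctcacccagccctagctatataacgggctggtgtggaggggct
Xirp2: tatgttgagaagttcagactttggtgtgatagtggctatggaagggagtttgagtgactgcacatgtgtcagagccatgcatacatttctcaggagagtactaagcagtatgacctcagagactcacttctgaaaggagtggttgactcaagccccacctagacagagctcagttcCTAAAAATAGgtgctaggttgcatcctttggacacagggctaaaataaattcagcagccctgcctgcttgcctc
Ttn: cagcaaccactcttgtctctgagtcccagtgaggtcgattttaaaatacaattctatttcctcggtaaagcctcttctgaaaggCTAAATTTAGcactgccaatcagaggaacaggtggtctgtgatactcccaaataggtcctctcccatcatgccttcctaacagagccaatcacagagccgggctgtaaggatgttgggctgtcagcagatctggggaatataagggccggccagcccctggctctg
Myoz2: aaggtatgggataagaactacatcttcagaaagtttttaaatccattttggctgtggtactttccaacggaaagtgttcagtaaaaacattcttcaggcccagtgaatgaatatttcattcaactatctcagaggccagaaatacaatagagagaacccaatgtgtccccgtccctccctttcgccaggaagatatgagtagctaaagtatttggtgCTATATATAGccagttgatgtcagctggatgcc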

How the data were processed

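Whole-heart total RNA was profiled as fragmented mRNA with random-hexamer cDNA and single reads of 50 bases on an Illumina HiSeq. The authors deposited read counts per transcript, whole numbers without normalization, and TPM values per transcript, scaled by transcript length, which the deposited counts and lengths give to within 5.5e-06. GRCm39 is the build named in the submitters' processing notes, and the aligner and counter are not given in the sources used here. The members and lists were chosen with earlier results of these data known.

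Counts and TPM were summed by gene name over all transcripts. The test was that of edgeR 4.0.16 in R 4.3.3 (TMM, filterByExpr, glmQLFit and glmQLFTest, a mean per group over all 9 libraries, Benjamini-Hochberg over 15504 genes or 34991 transcripts, threshold 0.05). This differs from the unpaired single-gene test of TPM in the study's methods. Genes named are the 10 members, their transcripts with at least 10% of the gene's reads in any group, and of each list the 3 largest and 3 smallest log2 fold changes with an adjusted p under 0.05 and a mean of 100 reads in the higher group. For Ttn, Ankrd1 and Des the 3 genes with the highest correlation were added. Egr1 and Myc were added after their values were seen. Alternatives used other scalings, filters and gene sums, a replicate block, limma 3.58.1 on log2(TPM + 0.1) and log2(TPM + 1), DESeq2 1.42.0, glmTreat at a fold of 1.5, a length trend, and each library left out. Total reads per library were 25458108 to 33447654, and a gene with at most 3 reads in every library of a group was at the floor, which covers counting error only. The edgeR and limma fits were tested on simulated data with known changes. For the median gene, squared differences between libraries were 1.24 to 1.53 times sampling noise within groups and 3.33 to 47.1 times between groups. No libraries were merged. The SEs and p-values rest on this spread within groups, and whether it covers the variation between animals was not tested. Junction and promoter sequences come from GENCODE M21 and RefSeq, and no coordinates were converted between builds.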

Additional observations from a re-analysis of the deposited data

How the results depend on the processing

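Ankrd1, Des and Tcap kept a higher level and Ttn a lower one in Tg-RKIP than in FVB under all 20 alternatives, with log2 fold changes of 1.00 to 1.72, 0.86 to 1.49, 0.26 to 1.00 and -1.17 to -0.42. TMM assumes that the median gene does not move, and reads shared by transcript forms limit the form values. The Actn2 transcript of 501 bases was given as a bound, and its values under the alternatives are not given here. It is among the member transcripts called higher in Tg-RKIP than in FVB (edgeR, adjusted p = 2.37e-05). For ENSMUST00000221162 of Actn2, without the FVB library that holds all of its FVB reads, the labelled Tg-GRK2 libraries were called higher than FVB too. The causes of these changes were not tested.

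In Tg-RKIP against FVB, 4 genes were higher and 6 lower. With cardiomyocyte marker reads 9 were higher and 1 lower, with total reads only 2 were lower, with limma on log2(TPM + 0.1) or log2(TPM + 1) 2 were lower, and against a fold change of at least 1.5 there were 2 higher and 1 lower. In labelled Tg-GRK2 against FVB, 2 higher and 5 lower became 0 and 0 against a fold of 1.5, and 3 lower in both limma fits. By edgeR's test against that fold 0 of them had an unadjusted p under 0.05, and DESeq2 called 7. In Tg-RKIP against labelled Tg-GRK2, 3 higher and 5 lower became 7 and 2 with total reads only, 6 higher without mitochondrial genes, 9 and 1 with cardiomyocyte marker reads, 7 and 2 in both limma fits, and 1 lower against a fold of 1.5. Over the 5 lists, 48 higher and 46 lower became 74 and 17 with cardiomyocyte marker reads, 26 and 17 against a fold of 1.5, 23 lower with total reads only and 18 lower in both limma fits. Of the member transcripts, 11 were lower with total reads only in each comparison of Tg-RKIP.

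Signs turned as follows in Tg-RKIP against FVB. With total reads only Actn2 was 0.26, Ldb3 0.012, Csrp3 0.18 and the transcripts ENSMUST00000032658 0.18, ENSMUST00000111635 0.051 and ENSMUST00000022327 0.25. Without mitochondrial genes Actn2 was 0.059. With cardiomyocyte marker reads Actn2 was 0.47, Ldb3 0.23, Myoz2 0.19, Csrp3 0.39, Xirp1 0.15 and Fos 0.20. With log2(TPM + 0.1) Actn2 was 0.76, Myoz2 0.017, Csrp3 0.22, Xirp1 0.092 and Fos 0.024, and with log2(TPM + 1) they were 0.76, 0.017, 0.22, 0.091 and 0.018. With the most abundant transcript Xirp2 was -0.81.

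In Tg-RKIP against labelled Tg-GRK2, with total reads only Actn2 was 0.36, Ldb3 0.033, Myoz2 0.091, Csrp3 0.29, Xirp2 0.33 and the transcripts ENSMUST00000029761 0.092, ENSMUST00000032658 0.29, ENSMUST00000111635 0.080, ENSMUST00000168193 0.049 and ENSMUST00000022327 0.26. Without mitochondrial genes Actn2 was 0.17, Csrp3 0.10 and Xirp2 0.14. With cardiomyocyte marker reads Actn2 was 0.56, Ldb3 0.23, Myoz2 0.29, Csrp3 0.48, Xirp1 0.13 and Xirp2 0.53. With log2(TPM + 0.1) Actn2 was 0.82, Myoz2 0.091, Csrp3 0.29, Xirp1 0.042 and Xirp2 1.61, and with log2(TPM + 1) 0.82, 0.091, 0.29, 0.042 and 1.60. With a filter of 10 CPM Actn2 was 0.055 and Xirp2 0.027, and with the length trend, added after seeing the data, Xirp2 was 0.41. Leaving out 1 library moved Actn2 between -0.019 and 0.0052.

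In labelled Tg-GRK2 against FVB, differences near 0 turned for Xirp1, to 0.0070 with DESeq2 size factors, 0.0071 in DESeq2, 0.0093 with total reads only, 0.025 with cardiomyocyte marker reads, 0.0027 with the 10 CPM filter, and 0.050 and 0.049 in limma with log2(TPM + 0.1) and log2(TPM + 1). Ldb3 was 0.015 in both limma fits, its transcript ENSMUST00000022327 0.0064 with DESeq2 size factors, and Des -0.0051 with the length trend. Leaving out 1 library moved Xirp1 between -0.020 and 0.0073, Des between -0.0044 and 0.0089, and ENSMUST00000022327 between -0.032 and 0.0068.

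The replicate number did not pair libraries, as deviations of equal numbers correlated at -0.037 to 0.024. The replicate block gave 5666 higher and 5735 lower genes in Tg-RKIP against FVB, beside 5709 and 5751 without it, and left the calls of the 10 genes at 4 and 6.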
